A study of Homo sapiens with 4 samples.

Results

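Genes encoding ZNF zinc finger proteins on chromosome 19 were examined in RNA-seq of U937, a human cell line of monocytic leukemia. A gene belonged to the set if it was annotated as protein-coding on chromosome 19 (hg38), carried a symbol made of ZNF and a number, and reached at least 1 TPM in 2 or more of the 4 libraries. TPM is the share of a library's transcripts, scaled to a common total, that a gene holds after division by transcript length. The annotation lists 249 such genes, of which 129 had a row in the table, and 117 of these passed the level rule, out of 14582 tested genes in all. The other 12 rows fell below the rule, and the 120 genes without a row were not analysed here.

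The 2 libraries labelled sh-ZNF217 were described as U937 with ZNF217 knockdown, and the 2 libraries labelled NC as U937 with no treatment. The study asked what changes in leukemia cells that lose ZNF217, a zinc finger protein that works with corepressors. Its methods name a knockdown for these libraries, as the labels do, and describe lentiviral short hairpin RNAs in pLKO.1-puro, while its results text speaks of a knockout with Cas9 and guide RNAs, so the study differs within itself on how the cells were made. Neither source says whether a line was 1 clone or whether the cultures behind the replicates were separate, so p-values measure only the spread between these libraries.

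ZNF217 mRNA itself was 35.81 and 34.97 TPM in libraries labelled sh-ZNF217, against 36.12 and 36.66 TPM in NC. Its log2 fold change was -0.04 (SE 0.07, interval -0.22 to 0.14, limma adjusted p = 0.74), so the mRNA level does not mark the libraries by their label. Every direction given here is therefore that of libraries as labelled. Totals differed by less than 0.1% between libraries and the depth is unknown. Of 8 monocytic marker genes 7 were tested, all 7 had positive fold changes and 3 of them (ITGAM, CSF1R and LYZ) were called higher. Not called were CD33 (log2 fold change 0.06), SPI1 (0.12), CD4 (0.22) and FCGR1A (0.39), while MPO was below 1 TPM in all 4 libraries. The summed level was 6333 and 6164 TPM in libraries labelled sh-ZNF217, against 3966 and 3979 TPM in NC. Most of it was LYZ alone, at 5511 and 5328 TPM in libraries labelled sh-ZNF217, against 3270 and 3256 TPM in NC. Mitochondrially encoded genes held 12.5% and 12.7% of TPM in libraries labelled sh-ZNF217, against 9.98% and 10.8% in NC. The part of the markers in the results was not tested, and the effect of leaving out mitochondrially encoded genes is given in the closing section. Of 7 T and NK cell markers CD3D, CD3E, CD3G, CD8A and KLRD1 had no row, and of the 2 tested CD2 was called higher. Among 5 B cell markers 3 were tested and PAX5 was called lower, and none of the erythroid, megakaryocyte, epithelial or fibroblast markers had a row. Beside these marker counts, 52.5% of all tested genes had positive fold changes, 6.26% were called higher and 2.46% lower.

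C2H2 zinc fingers are short folds held by a zinc ion, and proteins with arrays of them read DNA sequence. Many on chromosome 19 begin with a KRAB box, which recruits the corepressor TRIM28 and through it the histone methyltransferase SETDB1 and HP1 proteins. They arose by repeated tandem duplication, stand in clusters, and are best known for silencing transposable elements. Others on the same chromosome lack the box, and some carry a SCAN domain, through which such proteins pair.

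Promoters are shown for the 2 members that were called lower (ZNF296 and ZNF444), for the most abundant member (ZNF146) and for the most abundant member with a KRAB A box (ZNF317). They are RefSeq sequences on GRCh38.p14, from 250 bases before to 50 bases after the annotated start, and run 5′ to 3′ on the strand of the gene. ZNF296 lies on the minus strand at chr19:45076429-45076728, ZNF444 on the plus strand at chr19:56141037-56141336, ZNF146 on the plus strand at chr19:36214856-36215155 and ZNF317 on the plus strand at chr19:9140147-9140446. Capitals mark matches, on either strand, to cores of factors that the study placed in its circuit or downstream (ETS CGGAAG, MYB AACGG, E-box CACGTG, RUNX TGTGGT, FOX TGTTTAC and the MEF2 motif CTA, 4 free bases, TAG) and to 2 cores common at promoters (YY1 ATGGCGG and the NRF1 motif GCGCA, 1 free base, GCGC).
ZNF296: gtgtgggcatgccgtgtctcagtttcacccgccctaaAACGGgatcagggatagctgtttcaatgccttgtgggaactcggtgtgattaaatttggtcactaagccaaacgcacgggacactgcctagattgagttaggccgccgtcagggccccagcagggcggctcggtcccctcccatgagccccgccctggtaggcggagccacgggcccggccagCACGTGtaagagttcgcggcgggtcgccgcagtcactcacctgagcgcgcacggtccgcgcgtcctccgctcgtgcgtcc
ZNF444: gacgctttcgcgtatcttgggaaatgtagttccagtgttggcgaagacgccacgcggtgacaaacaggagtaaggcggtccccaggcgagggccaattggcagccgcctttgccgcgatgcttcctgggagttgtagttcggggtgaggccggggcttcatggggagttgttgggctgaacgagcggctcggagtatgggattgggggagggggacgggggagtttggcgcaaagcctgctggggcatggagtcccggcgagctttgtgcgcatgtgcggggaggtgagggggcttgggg
ZNF146: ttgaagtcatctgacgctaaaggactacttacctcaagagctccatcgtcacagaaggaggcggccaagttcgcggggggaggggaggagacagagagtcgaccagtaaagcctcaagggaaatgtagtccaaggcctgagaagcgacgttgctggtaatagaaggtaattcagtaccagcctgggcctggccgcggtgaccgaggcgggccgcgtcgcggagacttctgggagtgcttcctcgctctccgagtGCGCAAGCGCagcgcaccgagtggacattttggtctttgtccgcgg
ZNF317: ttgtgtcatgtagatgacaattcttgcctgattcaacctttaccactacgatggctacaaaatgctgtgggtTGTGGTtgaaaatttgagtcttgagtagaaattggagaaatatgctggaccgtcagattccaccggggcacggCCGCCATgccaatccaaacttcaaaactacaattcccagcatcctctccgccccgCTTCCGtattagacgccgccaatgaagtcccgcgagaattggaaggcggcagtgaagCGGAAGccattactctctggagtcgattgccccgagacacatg

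ZNF296 held an E-box and a MYB core, ZNF444 held none of the 8 motifs, ZNF146 held the NRF1 motif, and ZNF317 held 2 ETS cores, a RUNX core and the YY1 core. Promoters of 107 of the 117 members were matched by symbol. The ETS core stood in 60 of them (56.1%), against 35.1% of the promoters of 8837 other tested protein-coding genes and 19.9% of all 27305 in the RefSeq table. Among members it was found in 50 of 79 promoters of genes with the KRAB A box pattern described below, against 10 of 28 of the others. The other motifs differed by fewer percentage points. The MYB core was in 28.0% of member promoters, against 27.0% of those of other tested genes, the NRF1 motif in 14.02%, against 12.73%, the E-box in 6.54%, against 10.7%, the RUNX core in 10.3%, against 9.17%, and the YY1 core in 8.41%, against 11.3%. The FOX core (1 member promoter) and the MEF2 motif (2) were rare. The letters of the ETS core can overlap those of the MYB and YY1 cores. A match is a run of letters and was not tied to binding.

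Members were expressed at low levels. The median of the member means was 5.07 TPM, against 16.9 TPM over all tested genes, and 29 members averaged 10 TPM or more, 56 under 5 TPM and 19 at most 2 TPM. All 4 libraries reached 1 TPM for 109 members. Together the members held 928.8 and 944.3 TPM in libraries labelled sh-ZNF217, against 937.3 and 946.7 TPM in NC, which is under 0.1% of each library. The summed level thus overlapped between the groups.

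None of the 5 most abundant members was called, and ZNF146 stood well above the rest. ZNF146, a protein made almost wholly of zinc fingers, was at 88.9 and 81.4 TPM in libraries labelled sh-ZNF217, against 94.2 and 86.8 TPM in NC (log2 fold change -0.09, SE 0.08). Its groups overlapped. ZNF787 had 41.5 and 39.5 TPM in libraries labelled sh-ZNF217 and 50.7 and 43.3 TPM in NC (-0.21, SE 0.10, limma adjusted p = 0.19). ZNF428, which has a single finger, had 34.6 and 40.6 TPM in libraries labelled sh-ZNF217 and 43.1 and 45.9 TPM in NC (-0.24, SE 0.10, adjusted p = 0.15). Both were below NC in each library without passing the test, and the fold change was -0.09 for ZNF787 without NC replicate 1 and -0.13 for ZNF428 without sh-ZNF217 replicate 1. ZNF317 had 35.8 and 36.6 TPM in libraries labelled sh-ZNF217 and 29.4 and 33.8 TPM in NC, above NC in each library (0.19, SE 0.09, adjusted p = 0.20, and 0.10 without NC replicate 1). ZNF480 was at 23.0 and 23.2 TPM in libraries labelled sh-ZNF217, against 21.0 and 23.2 TPM in NC (0.07, SE 0.09), nearly level.

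**Figure D1:**
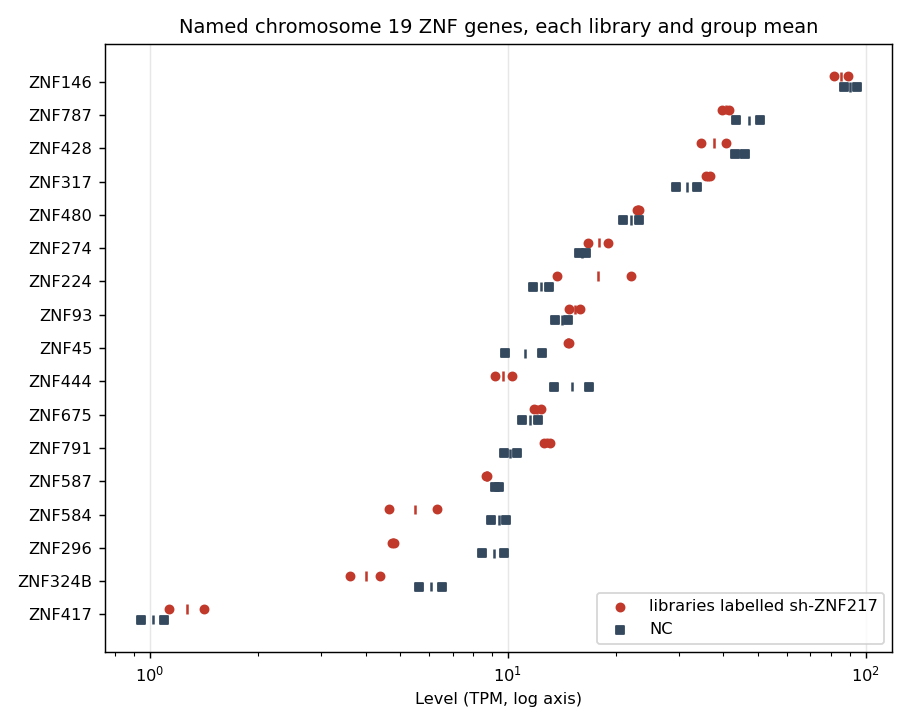
Level of 17 members in each library on a log axis in TPM, red circles for the libraries labelled sh-ZNF217 and dark squares for NC, with a short bar at each group mean. ZNF296 (4.73 and 4.81 TPM, against 9.76 and 8.46 TPM in NC) and ZNF584 show the widest gaps between groups, while ZNF146 overlaps.

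Groups were compared with limma on log2(TPM + 1), with NC subtracted from the libraries labelled sh-ZNF217, and a gene was called at an adjusted p under 0.05 over all tested genes and a log2 fold change beyond 0.5. No member was called higher, where 6.26% of all tested genes were, and 2 of 117 were called lower, where 2.46% were. By adjusted p alone the members gave the same counts, 0 higher and 2 lower, against 9.77% and 7.11% of all tested genes. At an unadjusted p under 0.05, 2 members were higher (ZNF791 and ZNF45) and 6 lower, against 18.9% and 15.5% of all tested genes. In bulk RNA fewer cells of a type and less RNA per cell cannot be told apart. The share called lower lay near that of all genes and the share called higher below it. On the scale of log2(TPM + 1) no member moved by more than 1, as 504 of the 14582 tested genes did. Beyond 0.5 were 6 of 117 members and 2514 of all tested genes. The added 1 shrinks the change of low genes more, and members had lower levels (median 5.07 TPM, against 16.9 TPM over all tested genes). In TPM itself the ratio of means of ZNF546 was 2.18, at a mean of 0.892 TPM.

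The member nearest to the middle of the list sat close to 0. The median log2 fold change was 0.04 over the 117 members and 0.02 over all tested genes, with 68 members positive and 49 negative. For 183 ZNF genes on other chromosomes the median was 0.07 (6 called higher and 2 lower), and for 688 other protein-coding genes on chromosome 19 it was -0.11 (25 called higher and 41 lower). Both libraries labelled sh-ZNF217 lay above both NC libraries for 31 members, where 33.5% of all tested genes did so, and below both for 24, where 28.6% did. Without NC replicate 1 the median of the members was -0.02. Its sign therefore rests on that library.

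**Figure D2:**
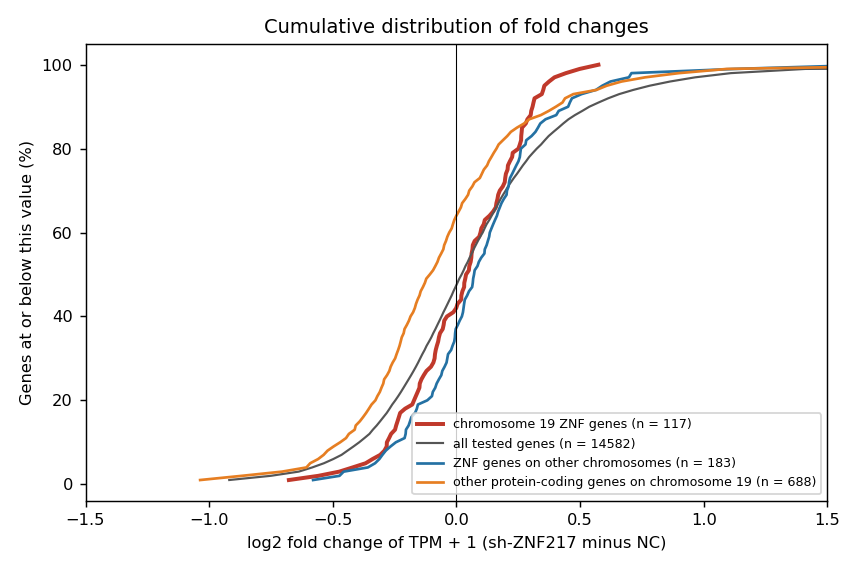
Cumulative share of genes (percent) at or below each log2 fold change of TPM + 1 (sh-ZNF217-labelled minus NC), for 117 members (red), all 14582 tested genes (grey), 183 ZNF genes on other chromosomes (blue) and 688 other protein-coding genes of chromosome 19 (orange). The members' curve ends at 0.57 and crosses 0 close to the curve of all genes, while the orange curve lies to its left in the lower and middle part and to its right at the top.

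The members also varied between libraries of 1 group. Their median absolute log2 difference was 0.175 between the libraries labelled sh-ZNF217 and 0.147 between the NC libraries, against 0.128 and 0.122 over all tested genes. Across groups it was 0.173 to 0.246 for members, against 0.243 to 0.253 for all tested genes. The difference between groups therefore exceeded the difference within groups by less for members than for genes at large. Lower levels went with wider intervals, as the median width to either side of the 95% interval of the fold change was 0.56 for members under 5 TPM and 0.29 for those at 10 TPM or more. For 30 of 117 members the whole interval lay within 0.5 of 0, where 40.7% of all tested genes did so, and for the others the interval reached beyond 0.5.

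ZNF296, with 6 fingers, had the largest fold change of the 117 members (ENSG00000170684, chr19:45071500-45076478, minus strand, hg38). In mouse its counterpart is known as a partner of the reprogramming factor KLF4. The gene stands alone on the chromosome, more than 500 kb from the next ZNF gene, and its exons overlap no other gene. Its level was 4.73 and 4.81 TPM in libraries labelled sh-ZNF217, against 9.76 and 8.46 TPM in NC. All values in the libraries labelled sh-ZNF217 lay below NC, and the log2 fold change was -0.81 (SE 0.15, limma adjusted p = 0.0229), a ratio of means of 0.523. The call was lost with 3 libraries when NC replicate 1 (adjusted p = 0.0990), sh-ZNF217 replicate 1 (0.0857) or sh-ZNF217 replicate 2 (0.0809) was left out, and kept without NC replicate 2.

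ZNF444 carries 4 fingers behind a SCAN domain and was described as a binder of the promoter of the scavenger receptor gene SCARF1 (ENSG00000167685, chr19:56132599-56160893, plus strand, hg38). Its exons overlap no other gene. It had 10.2 and 9.18 TPM in libraries labelled sh-ZNF217, against 16.9 and 13.4 TPM in NC. The groups did not overlap and NC replicate 1 stood highest. The log2 fold change was -0.58 (SE 0.15, limma adjusted p = 0.0494), at the edge of the threshold. It was -0.43 (adjusted p = 0.177) without NC replicate 1, and an adjusted p above 0.05 came from several further alternatives given in the closing section.

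Some members that were not called are named because of their values, and ZNF584 lay nearest to the call. ZNF584, a KRAB gene at the end of the long arm, had 6.35 and 4.64 TPM in libraries labelled sh-ZNF217, against 9.89 and 8.98 TPM in NC. Its log2 fold change of -0.70 (SE 0.18) had a limma adjusted p of 0.0517, and its exons overlap those of 2 unnamed genes. ZNF324B had 3.62 and 4.38 TPM in libraries labelled sh-ZNF217 and 5.64 and 6.52 TPM in NC (-0.50, SE 0.18, adjusted p = 0.11), ZNF875 5.01 and 6.04 TPM in libraries labelled sh-ZNF217 and 8.83 and 6.95 TPM in NC (-0.44, adjusted p = 0.14), and ZNF587B 5.62 and 5.80 TPM in libraries labelled sh-ZNF217 and 7.17 and 8.69 TPM in NC (-0.41, adjusted p = 0.13). In all 4 genes both libraries labelled sh-ZNF217 lay below both NC libraries.

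On the other side, ZNF557 had the largest positive value, with 5.15 and 5.59 TPM in libraries labelled sh-ZNF217, against 2.53 and 4.19 TPM in NC (0.57, SE 0.24, limma adjusted p = 0.15). ZNF45 was at 14.7 and 14.8 TPM in libraries labelled sh-ZNF217, against 9.82 and 12.4 TPM in NC (0.38, adjusted p = 0.12), and ZNF791 at 13.1 and 12.6 TPM, against 10.6 and 9.73 TPM in NC (0.31, adjusted p = 0.12). The groups did not overlap in any of the 3 genes, and none passed the adjusted test. ZNF546 had 1.44 and 1.00 TPM in libraries labelled sh-ZNF217, against 0.639 and 0.482 TPM in NC (0.51, adjusted p = 0.25), and is the only member that reached 1 TPM in no NC library. It entered the set through the group where it was higher.

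Of 14 chromosome 19 ZNF genes with a described function, listed with earlier results in view, 6 are members, none was called, and their median was 0.13. ZNF93, which binds LINE-1 elements of older age, had 14.8 and 15.9 TPM in libraries labelled sh-ZNF217, against 14.8 and 13.6 TPM in NC (0.11, SE 0.11). ZNF274, which brings SETDB1 to the 3′ ends of zinc finger genes, had 16.8 and 19.1 TPM in libraries labelled sh-ZNF217, against 16.5 and 15.8 TPM in NC (0.14, SE 0.11). Both lay above NC in each library by small margins, and neither passed the test (limma adjusted p = 0.52 and 0.41). ZNF224, a KRAB repressor and a cofactor of WT1 in leukemia cells, was at 13.7 and 22.0 TPM in libraries labelled sh-ZNF217, against 11.8 and 13.1 TPM in NC (0.46, SE 0.22, adjusted p = 0.21). Here a single library, sh-ZNF217 replicate 2, stood far above the rest.

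ZNF675, an inhibitor of TRAF6 signalling, was level at 12.4 and 11.8 TPM in libraries labelled sh-ZNF217, against 12.1 and 10.9 TPM in NC (0.06, SE 0.12). ZNF587 and ZNF417 are near copies that repress endogenous retroviruses, and their transcripts share 24.6% and 37.9% of their 50-base words with other genes, most often each other, so reads may be divided between them. ZNF587 was at 8.69 and 8.73 TPM in libraries labelled sh-ZNF217, against 9.44 and 9.19 TPM in NC (-0.09, SE 0.12). ZNF417 was at 1.41 and 1.13 TPM in libraries labelled sh-ZNF217, against 0.943 and 1.10 TPM in NC (0.17, SE 0.25). The pair had opposite signs and neither passed the test. ZNF91, ZNF350, ZNF420, ZNF331, ZNF568, ZNF649 and ZNF304 had no row. ZNF382, a KRAB repressor with growth-suppressing activity, was below the level rule at 0.946 and 1.27 TPM in libraries labelled sh-ZNF217, against 0.248 and 0.0486 TPM in NC.

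Genes at the edge of the rule show what it left out. Just inside were ZNF837 (0.122 and 1.06 TPM in libraries labelled sh-ZNF217, against 0.648 and 1.08 TPM in NC), ZNF497 and ZNF805, each with 1 TPM in only 2 libraries. Just outside were ZNF554 (1.23 and 0.913 TPM in libraries labelled sh-ZNF217, against 0.742 and 0.851 TPM in NC), ZNF543, ZNF583, ZNF155 and ZNF382, each with 1 TPM in a single library. In ZNF837 the libraries of 1 label differed more than the group means did.

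Members were next grouped by position, with a new cluster where neighbouring ZNF genes lay more than 500 kb apart. In 2 clusters of the long arm the members leaned to opposite signs, a difference that was not tested. In the cluster at chr19:51571283-53580269 (hg38), 15 of 16 members had a positive log2 fold change (median 0.12), 6 lay above NC in both libraries (37.5%, against 33.5% of all tested genes) and 0 below (against 28.6%). In the terminal cluster at chr19:57191500-58481230, 19 of 25 were negative (median -0.08), 5 lay above (20%) and 10 below (40%). No member of either was called. Between single libraries of the 2 groups, 10 to 14 of the 16 genes were higher in the library labelled sh-ZNF217 and 15 to 16 of the 25 were lower. With NC replicate 1 left out, 10 of the 16 had a positive fold change. Over all tested genes 52.5% had a positive fold change.

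Named from the first cluster for their values, ZNF611 had 5.90 and 4.50 TPM in libraries labelled sh-ZNF217, against 3.70 and 3.96 TPM in NC (0.35, limma adjusted p = 0.25), and ZNF160 had 5.13 and 5.09 TPM, against 3.42 and 4.51 TPM in NC (0.31, adjusted p = 0.30). ZNF808, a KRAB gene needed for pancreas development, had 9.01 and 11.1 TPM in libraries labelled sh-ZNF217, against 8.003 and 8.376 TPM in NC (0.26, adjusted p = 0.26). From the terminal cluster ZNF17 had 3.71 and 3.65 TPM in libraries labelled sh-ZNF217, against 4.96 and 5.03 TPM in NC (-0.36, adjusted p = 0.19). Each of these had groups that did not overlap and a difference that missed the threshold.

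Of the other clusters with 8 or more members, 3 were mostly positive, 2 mixed and 1 mostly negative. At chr19:11483427-12640098, 9 of 11 members were positive (median 0.16). The cluster at chr19:19668796-24129968, which spans the centromere side of the short arm, had 8 of 10 positive (0.08). That at chr19:43525497-44500524, which holds ZNF45 and ZNF224, had 9 of 12 (0.19). In it 5 lay above NC in both libraries (41.7%, against 33.5% of all tested genes). At chr19:8509678-9793180, which holds ZNF317, 5 of 8 were positive, and at chr19:36182276-37817300, which holds ZNF146, 6 of 12. The cluster at chr19:55476617-56671783, which holds ZNF444 and ZNF787 and has 1 member with a KRAB pattern, was negative in 7 of 10 (median -0.14). Of these 10, 5 lay below NC in both libraries (50%, against 28.6% of all tested genes) and 2 above (20%, against 33.5%).

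**Figure D3:**
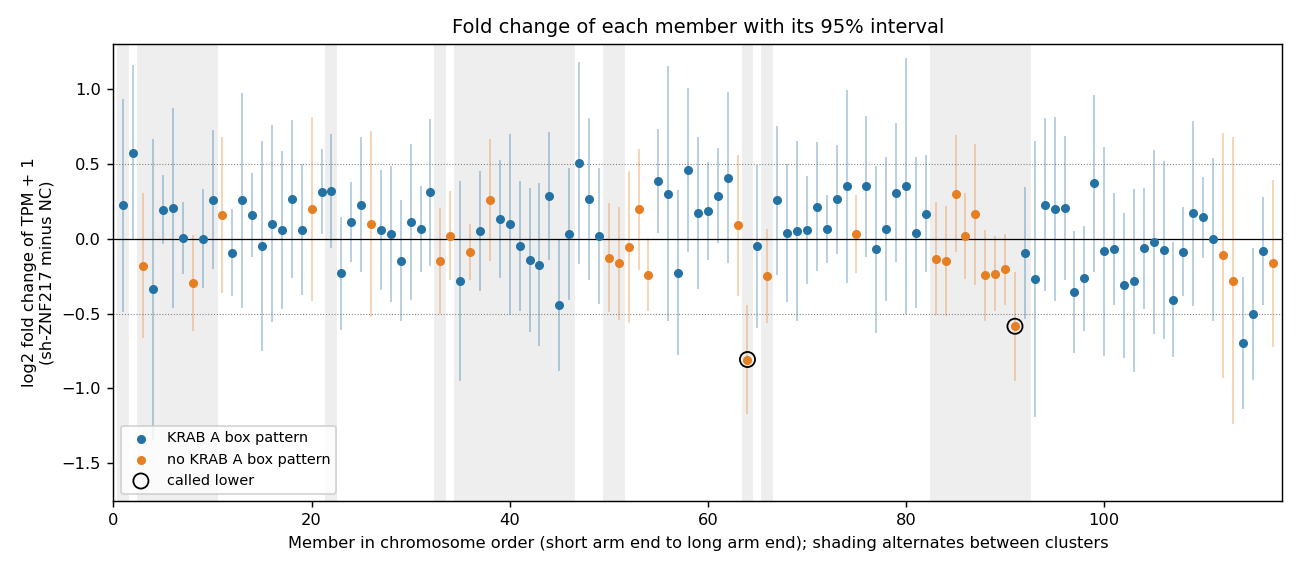
Log2 fold change of TPM + 1 (sh-ZNF217-labelled minus NC) of each of 117 members in chromosome order, with its 95% interval, blue for a KRAB A box pattern and orange for none, shading alternating between clusters and dotted lines at -0.5 and 0.5. The circled genes are ZNF296 (-0.81) and ZNF444 (-0.58), and 19 of the 25 members at the right end lie below 0.

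By protein type, 87 members held a KRAB A box pattern in the translated transcript and 30 did not. The pattern misses divergent boxes, such as that of ZNF473, so the others include some KRAB genes. Over all tested genes 52.5% were positive, and over ZNF genes on other chromosomes 62.8% (median 0.07). With the pattern, 57 of 87 were positive (65.5%, median 0.06), or 48 of 87 without NC replicate 1. Of the 87, 28 lay above NC in both libraries (32.2%, near the 33.5% of all tested genes). Below NC in both lay 12 (13.8%, against 28.6%), and none was called. Without the pattern, 11 of 30 were positive (36.7%, median -0.13), 3 lay above (10%), 12 below (40%), and both called genes are among them. The summed level of the first kind was 546 and 559 TPM in libraries labelled sh-ZNF217, against 506 and 541 TPM in NC, and that of the second 383 and 385 TPM, against 431 and 406 TPM in NC. The sums of both kinds did not overlap between groups, lay on opposite sides of NC, and were not tested. For the first kind the nearest sums were 546 and 541 TPM. Abundant genes weigh most in the second. Its top 3, ZNF146, ZNF787 and ZNF428, averaged 85.2, 40.5 and 37.6 TPM in libraries labelled sh-ZNF217, against 90.5, 47.0 and 44.5 TPM in NC. The sums therefore do not show a shift across all genes of a kind.

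The number of fingers went the same way. Of 35 members with 1 to 9 fingers 11 were positive (median -0.08), of 49 with 10 to 14 fingers 31 were (0.06), and of 33 with 15 or more 26 were (0.16). ZNF850, which has 29 fingers, the most of any member, was at 2.37 and 2.57 TPM in libraries labelled sh-ZNF217, against 2.78 and 2.87 TPM in NC (-0.14, SE 0.19), against that order. Over 117 genes, which are not independent, Pearson's r of fold change with finger number was 0.30 and Spearman's rho 0.31.

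GC content of the transcript followed the same split. The median was 42.3% for members with the KRAB pattern and 62.4% for the others. Under 45% GC, 57 of 77 members were positive (median 0.09), at 45 to 55% 7 of 16 (-0.03), and at 55% or more 4 of 24 (-0.16), ZNF296 and ZNF444 included. All tested genes with a known transcript ran in the same order, with medians of 0.10, 0.01 and -0.07 and 62.8%, 51.9% and 40.6% positive. Over the 117 members r with GC content was -0.41 and rho -0.33, and within the 87 KRAB members -0.33 and -0.18, against -0.20 and -0.22 over 13432 genes. KRAB type, finger number and GC content go together among these genes, and their parts cannot be told apart here. Cluster followed them only in part. In the terminal cluster 22 of 25 members held the KRAB pattern, and 6 of these 22 were positive (median -0.08, median GC 44.5%). In the long-arm cluster set beside it above, 14 of 15 KRAB members were positive (median 0.17, median GC 40.6%). Of the KRAB members outside both clusters, 37 of 50 were positive (median 0.11). These differences were not tested. ZNF524, at 69.1% GC, ran against the order by GC content. It had 20.3 and 18.5 TPM in libraries labelled sh-ZNF217, against 18.1 and 13.4 TPM in NC (0.30, limma adjusted p = 0.24).

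**Figure D4:**
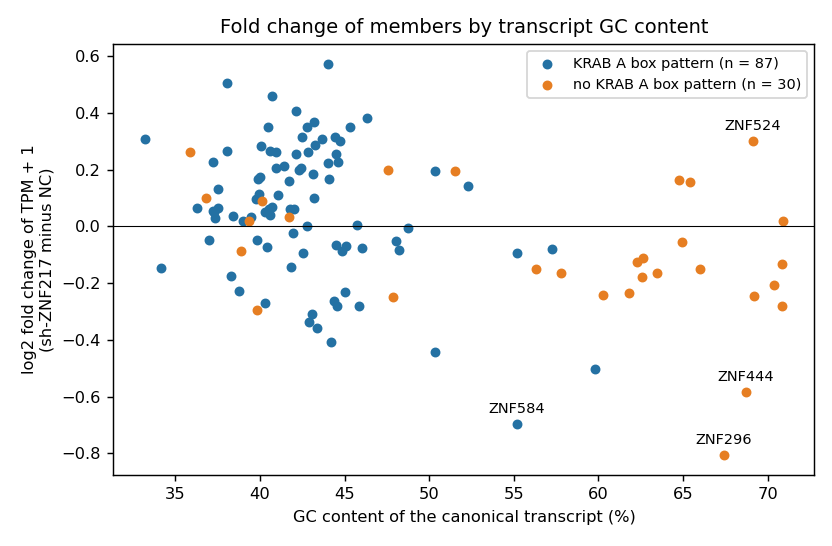
Log2 fold change of TPM + 1 (sh-ZNF217-labelled minus NC) against GC content of the canonical transcript (percent) for 117 members, blue for a KRAB A box pattern (87) and orange for none (30). Of 24 members at 55% GC or more 20 lie below 0, and the 77 under 45% GC lie mostly above it.

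Overlap and shared sequence limit single values. Exons of 76 members overlap those of another gene, and whether counting used strand is not given in the sources used here, so values of these are uncertain. For the 41 without overlap the median was 0.03, with 2 called lower. At least 10% of the 50-base words of the transcript occurred in another gene for 25 members, with the highest shares in ZNF564 (86.2%), ZNF490 (56.6%), ZNF724 (55.1%) and ZNF799 (47.7%, most often with ZNF443). Of those 25, 15 were positive (median 0.06) and none was called.

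The machinery through which KRAB proteins act was read from a list of 30 genes, all tested, also chosen with earlier results known. None was called in either direction, 22 of 30 had negative fold changes, and the median was -0.12. Over all 14582 tested genes 6933 were negative and the median was 0.02. This difference was not tested. TRIM28, the corepressor that KRAB boxes bind, had 248 and 261 TPM in libraries labelled sh-ZNF217, against 333 and 282 TPM in NC (-0.27, SE 0.09, limma adjusted p = 0.093). SETDB1 had 46.2 and 46.9 TPM, against 37.6 and 46.3 TPM in NC (0.15, SE 0.11, adjusted p = 0.38), where NC replicate 1 stood apart. Neither difference passed the test.

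By adjusted p alone 1 of the 30 genes passed as higher and 2 as lower, against 9.77% and 7.11% of all tested genes, with changes short of the fold threshold. MORC3, an ATPase of chromatin silencing, had 42.9 and 38.0 TPM in libraries labelled sh-ZNF217, against 27.0 and 29.7 TPM in NC (0.497, SE 0.10, limma adjusted p = 0.0265). DNMT1, the maintenance DNA methyltransferase, had 131 and 136 TPM in libraries labelled sh-ZNF217, against 155 and 159 TPM in NC (-0.24, adjusted p = 0.0401). Its partner UHRF1 had 79.3 and 85.3 TPM, against 98.5 and 105 TPM in NC (-0.31, adjusted p = 0.0393). The groups did not overlap in any of the 3.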

How the data were processed

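Libraries were made from total RNA of U937 cells with a TruSeq kit, per the labels. The authors filtered the reads and aligned them to hg38 with HISAT2 2.0.5. Not given in the sources used here were quantifier, annotation, strand use and depth. The values deposited by the authors were taken as TPM, since column totals were almost equal (998930 to 999280) and levels did not rise with transcript length (r = -0.25 over 10909 protein-coding genes), as a measure without length division tends to do. The header names no unit, and the study names its measure FPM. TPM keeps no depth, so no counting interval was given, and abundant genes that rise pull the others down. A column's sample was read from its name, which holds NC or ZNF with a replicate number. Other parts of the names are not explained, and 0 value columns were left unmatched.

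Genes were named by GENCODE 44 (16143 of 17656 identifiers). Genes with at least 1 TPM in 2 libraries were tested (14582, leaving out 3074) on log2(TPM + 1), which understates the change of low genes, with limma 3.58.1 in R 4.3.3 (trended, robust empirical Bayes, group alone) and Benjamini-Hochberg adjustment over all of them. Fingers and the KRAB A box were found by pattern in translated GENCODE 44 transcripts, in place of the RefSeq proteins first planned. Promoter motifs were chosen after the data were seen. On simulated data with 200 of 14582 genes changed, limma called 90 of 100 at a log2 of 1 and 100 of 100 at a log2 of 2, with 10 false calls. The changed genes were drawn only from those with a mean log2(TPM + 1) above 2, and the spread was smoothed over genes of similar level. Recovery was not tested for genes below that level, many members among them, or for changes smaller than a log2 of 1.

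Named genes were called members, members with a described function, the 5 most abundant, ZNF217 and called genes of the corepressor list. Any others named were chosen after their values were seen. The members and lists were chosen with earlier results of these data known. Alternatives were other pseudocounts, filters, scalings, a replicate block, plain empirical Bayes and leaving out each library. Sequences come from RefSeq, and plots were made in Python 3.11.15 (matplotlib 3.10.9).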

Additional observations from a re-analysis of the deposited data

How the results depend on the processing

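No member was called higher under any alternative run. The count called lower, 2 of 117, was 1 with a pseudocount of 0.1, without a filter on low values, without mitochondrially encoded genes and without trend and robust options, and 0 to 2 with 1 library left out, the 0 arising when NC replicate 1, sh-ZNF217 replicate 1 or sh-ZNF217 replicate 2 was missing. ZNF296 was called whenever all 4 libraries were used. ZNF444 had an adjusted p of 0.0503 with the pseudocount of 0.1, 0.0582 without a filter, 0.0530 without mitochondrially encoded genes, 0.0957 without trend and robust options, and 0.115 and 0.167 without sh-ZNF217 replicate 1 and 2, while it was 0.0374 among genes with a mean of at least 5 TPM, 0.0436 with median-of-ratios scaling and 0.0431 without NC replicate 2. ZNF584 was also called lower with that mean filter (0.0396) and with that scaling (0.0465), which moved the median of all genes by -0.03. Over all tested genes, 560 were higher and 163 lower without trend and robust options, and with 1 library left out 294 to 712 were higher and 129 to 317 lower. The median of members ran from -0.020 to 0.073 with 1 library left out, with the lowest value without NC replicate 1. With 1 library left out the fold change of ZNF480 ran from -0.0023 (without NC replicate 1) to 0.13 and that of ZNF675 from -0.0050 (without NC replicate 2) to 0.13. The labels do not say that replicate numbers pair the libraries, and deviations of same-numbered libraries had a correlation of -0.005. With the replicate number as a block, 1 member was called lower, ZNF296 at an adjusted p of 0.0453, and ZNF444 had 0.0511, with 749 genes higher and 300 lower in all. Counts of signs were also run, as alternatives chosen after seeing the data. With 1 library left out, 10 to 14 of 16 members of the cluster at chr19:51571283-53580269 were positive, 14 to 17 of 25 of the terminal cluster negative, 16 to 21 of 24 with GC of 55% or more negative, and 48 to 61 of 87 with the KRAB pattern positive. Depth is unknown, so the precision of low members rests on the spread of 2 libraries per group.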

Other observations

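Of 12 tested genes of chromosome 19 that encode at least 3 C2H2 fingers under other names none was called, and their median log2 fold change was -0.05. ZBTB45 had 6.57 and 5.76 TPM in libraries labelled sh-ZNF217, against 9.15 and 9.76 TPM in NC (-0.55, SE 0.14, limma adjusted p = 0.0508). KLF16, a GC-box binding factor, had 31.2 and 31.6 TPM in libraries labelled sh-ZNF217, against 39.1 and 38.2 TPM in NC (-0.29, SE 0.07, adjusted p = 0.0462), short of the fold threshold. In both genes the groups did not overlap.

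Noncoding genes and pseudogenes with ZNF names on the same chromosome gave 10 tested rows, none called. Their log2 fold changes ran from -0.21 (ZNF321P) to 0.92 (ZNF818P, SE 0.29, limma adjusted p = 0.086). The row named next had the lowest adjusted p of the 10. ZNF567-DT, a divergent transcript next to ZNF567, had 7.52 and 7.36 TPM in libraries labelled sh-ZNF217, against 4.90 and 4.57 TPM in NC (0.56, SE 0.14, limma adjusted p = 0.0534), while ZNF567 itself had 6.91 and 8.45 TPM, against 7.04 and 8.96 TPM in NC (-0.05, SE 0.17). The noncoding row lay above NC in both libraries and the coding gene overlapped.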
